A study of Homo sapiens with 4 samples.

Results

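The 49 genes described here act at the G2/M transition and in mitosis: regulators of entry into mitosis, kinetochore and spindle proteins, condensin subunits and proteins of cytokinesis. They were chosen by symbol, as every gene of a named list with a probe set annotated to it alone, out of 19583 genes measured. All 49 were measured, by 94 of 39464 named probe sets. RNA came from LNCap (LNCaP), an androgen-responsive human prostate tumor cell line, on 2 arrays labelled LNCap ERG, whose cells carried a lentivirus for the ETS transcription factor ERG with red fluorescent protein, and 2 labelled LNCap Vector, whose cells carried a control lentivirus with the fluorescent protein alone. Cells of both groups were grown in the same medium, seeded and left overnight before RNA was taken. The study asked which phenotype goes with ERG. Nothing states whether arrays of the same group stem from separate cultures, or whether the transduced cells were a clone or a pool. The p-values therefore cover the spread among the 4 arrays alone, and that spread may be technical.

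Entry into mitosis is driven by the kinase CDK1 bound to cyclin A or cyclin B. Most genes of this program are transcribed late in the cycle, when MYBL2 (B-MYB) and FOXM1 join the MuvB proteins at their promoters, and are silent in resting cells, where the same MuvB proteins form the repressive DREAM complex with RBL1 or RBL2. Their messages are therefore commonly read as a measure of how many cells in a culture are dividing. An array of bulk RNA cannot tell fewer cells in G2 and mitosis apart from less of these messages per cell.

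Values are log2 probe set intensities, and a log2 fold change is the mean of the LNCap ERG arrays minus that of the LNCap Vector arrays. Each gene was read from its probe set with the highest mean, and tested with limma over all genes with Benjamini-Hochberg adjustment. Genes of other organs gave a level for genes that are not used: the 95th percentile of 35 such genes, at a log2 intensity of 5.55, is called background. ERG itself was not above it at any of its 4 probe sets, which lay between 2.65 and 3.58 in the 4 arrays. Their log2 fold changes ran between -0.24 and 0.12, so ERG does not check the labels, and it is not known whether these probe sets match the lentiviral message. The 10 genes analysed as markers of LNCaP cells were all above background in every array. Markers of basal and leukocyte cells, 3 and 5 genes, were all below it. Of 6 fibroblast markers COL1A1 was above it, and of 5 endothelial markers VWF was. The summed intensity was 467 to 496 units in the LNCap ERG arrays and 376 to 388 in the LNCap Vector arrays for the fibroblast list, and 103 to 113 against 85.0 to 94.7 for the endothelial list. Each sum is of linear units and rests mostly on the gene above background, COL1A1 at a log2 fold change of 0.38 and VWF at 0.30. The median log2 fold change was -0.03 over the fibroblast list, where 1 gene was higher without overlap, 1 lower and 4 overlapped. Over the endothelial list the median was 0.30, where 3 genes were higher without overlap and 2 overlapped. The part of fibroblast or endothelial cells in the values below was not tested.

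The members were well measured. Of the 49, 47 had both group means above background, with a median level of 8.60 and a range from 4.18 for SGO1 to 11.64 for PTTG1. SGO1 and INCENP lay below background in both groups. The log2 fold change was below 0 for 45 of the 49 members, where 47.2% of all genes were (49.7% of genes above background in both groups), and its median was -0.14, which is 1.10-fold lower, beside a median of 0.01 over all genes. For 40 members both LNCap ERG arrays lay below both LNCap Vector arrays, where this held for 19.1% of all genes (24.2% of the genes above background in both groups). No member lay above, where 21.7% of all genes did. The remaining 9 members overlapped between the groups.

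No member passed the test on its own. By limma 0 of 49 members were higher and 0 lower at an adjusted p under 0.05, where 0.00511% of all genes passed in each direction (1 gene each, DDC upward and PEG3 downward, named after their values were seen). The smallest adjusted p among the members was 0.32, for CEP55. At an unadjusted p under 0.05, 9 members were lower and 0 higher, where 4.11% of all genes were lower and 5.61% higher. The methods' t-test gave 12 lower and 0 higher unadjusted, where it gave 3.76% of all genes lower and 4.38% higher, and 0 after adjustment. The median standard error of a member's log2 fold change was 0.08, beside a median difference of -0.14. The separation between groups was narrow for some members. The gap between the groups was under 0.05 for 8 of the 40, and for 1570 of the 3745 genes over all that were lower without overlap. It was over 0.1 for 16 members, where 6.13% of all genes (7.36% of those above background in both groups) had a gap over 0.1 with the LNCap ERG arrays lower. It was over 0.1 in the other direction for 0 members and 7.99% of all genes.

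**Figure D1:**
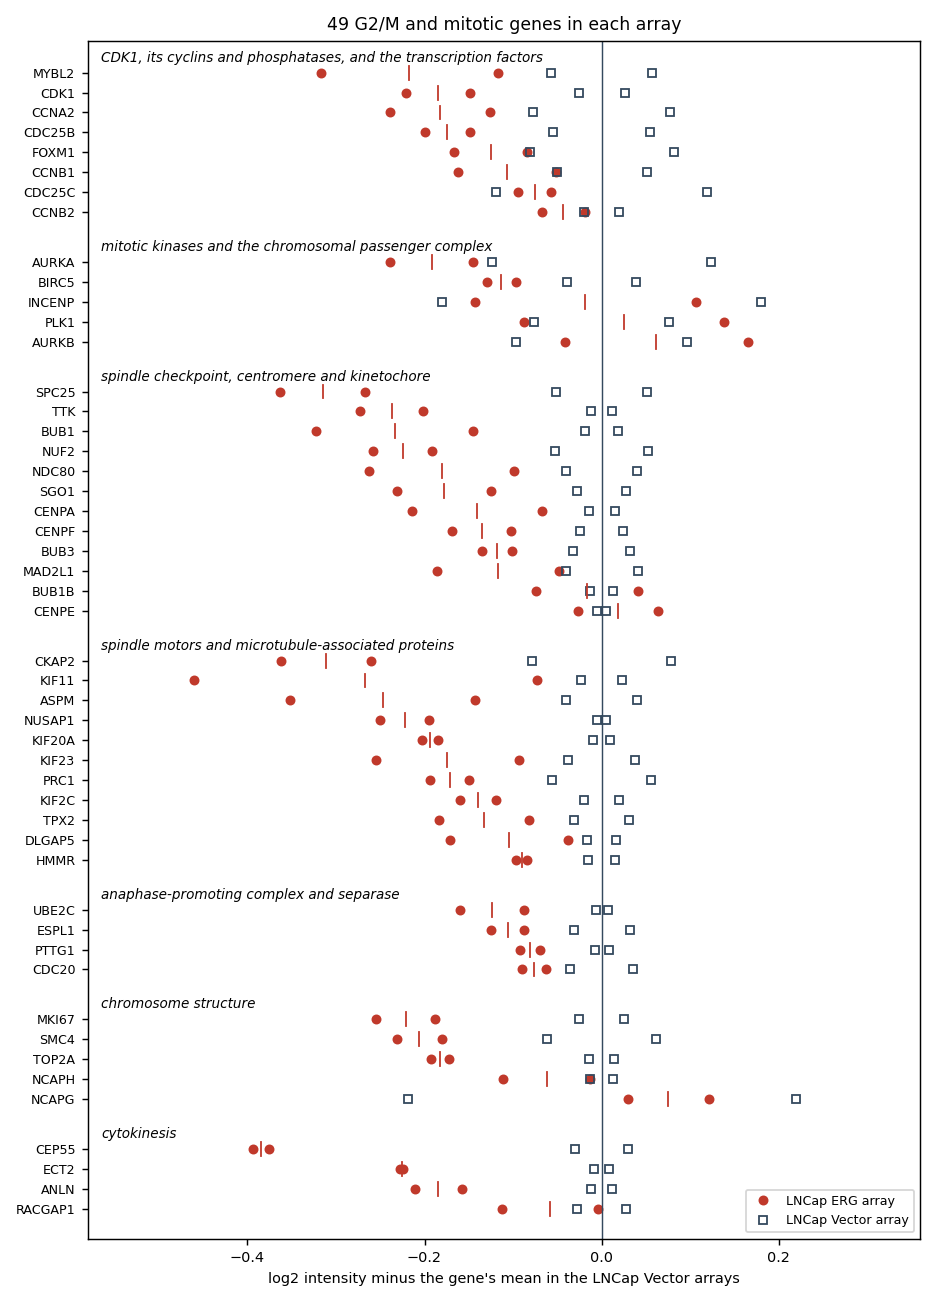
Log2 intensity of each of the 49 members in each array minus the member's mean in the LNCap Vector arrays (x axis), with members grouped by role (y axis). Filled circles are the 2 LNCap ERG arrays, open squares the 2 LNCap Vector arrays and short lines the LNCap ERG mean; for 40 of 49 members both circles lie left of both squares, and for none do both lie right.

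Between the 2 LNCap ERG arrays the median difference over the 49 members was -0.004, and between the 2 LNCap Vector arrays it was -0.024, with members going both ways in each pair. Across groups, the first LNCap ERG array was lower than the first and the second LNCap Vector array by medians of 0.14 and 0.20, and the second LNCap ERG array by 0.14 and 0.15. In the pairings across groups, 42 to 48 of 49 members were lower in the LNCap ERG array, where 44.3% to 52.3% of all genes were. The lowest of a member's 4 values fell in a LNCap ERG array for 45 members, 24 in the first and 21 in the second. Of all genes, 23.9% had their lowest value in the first LNCap ERG array and 23.9% in the second. A member's highest value fell in a LNCap Vector array for the same number, 20 in the first and 25 in the second. Of all genes, 20.0% had their highest value in the first LNCap Vector array and 28.0% in the second. With any single array left out the median over the members stayed between -0.167 and -0.130.

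The promoters of these genes share sequence features that the choice of genes did not use. The cell cycle genes homology region (CHR) is the element bound by MuvB proteins, searched here as TTTGAA or TTCGAA, and the box bound by NF-Y was searched as CCAAT, on both strands. RefSeq promoter windows on GRCh38.p14, from 250 bases before an annotated start to 50 after it, were matched for 41 of the 49 members, 52 windows in all. A CHR was found in 65.4% of member windows, against 13.5% of the windows of all genes tested. A CCAAT box stood in 69.2% against 34.4%, and both stood in 51.9% against 5.35%. Letters read by ETS factors, searched as CGGAAG, were in 34.6% of member windows against 24% of all, and an E2F site, TTTGGCG or TTTCGCG, in 11.5% against 3.95%. The members lower without overlap had 40 windows. Of these, 67.5% held a CHR, 72.5% a CCAAT box, 30% the ETS letters and 15% an E2F site. In windows of the other mitotic genes described below, 53.8% held a CHR, 61.5% a CCAAT box and 38.5% both. The ETS letters were in 35.9% of those windows and an E2F site in 10.3%. Different motifs overlapped each other in 1 member window. These are matches of letters and no binding was measured.

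The bases before the start are shown for the 4 named members with the largest differences whose windows hold both a CHR and a CCAAT box, to let the spacing of the elements be seen. Capitals mark the CHR and CCAAT matches that lie whole within the bases shown, on either strand, and all run 5′ to 3′ along the gene. CEP55 (chr10:93496362-93496611, + strand) has a CHR next to a CCAAT box, and a further CHR across the start. SPC25 (chr2:168890431-168890680, - strand) has paired CCAAT boxes, a distant CHR at the far end and another CHR across the start. In KIF11 (chr10:92592880-92593129, + strand) the box precedes a CHR close to the start, and ECT2 (chr3:172750476-172750725, + strand) has, at the first of its annotated starts, a CHR followed by paired boxes.
CEP55: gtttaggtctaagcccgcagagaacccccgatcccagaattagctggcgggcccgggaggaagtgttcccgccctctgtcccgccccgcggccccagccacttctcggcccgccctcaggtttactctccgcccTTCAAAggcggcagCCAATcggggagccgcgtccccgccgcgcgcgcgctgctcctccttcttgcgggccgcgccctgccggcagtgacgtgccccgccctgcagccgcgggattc
SPC25: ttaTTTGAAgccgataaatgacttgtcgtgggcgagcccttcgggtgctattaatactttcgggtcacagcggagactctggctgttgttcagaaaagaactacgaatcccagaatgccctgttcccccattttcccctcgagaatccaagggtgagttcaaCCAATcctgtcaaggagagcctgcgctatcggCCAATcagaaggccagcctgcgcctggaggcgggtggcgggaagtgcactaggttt
KIF11: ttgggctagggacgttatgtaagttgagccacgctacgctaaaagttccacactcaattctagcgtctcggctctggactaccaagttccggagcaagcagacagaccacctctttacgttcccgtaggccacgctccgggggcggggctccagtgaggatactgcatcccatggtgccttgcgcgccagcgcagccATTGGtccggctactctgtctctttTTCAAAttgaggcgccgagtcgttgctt
ECT2: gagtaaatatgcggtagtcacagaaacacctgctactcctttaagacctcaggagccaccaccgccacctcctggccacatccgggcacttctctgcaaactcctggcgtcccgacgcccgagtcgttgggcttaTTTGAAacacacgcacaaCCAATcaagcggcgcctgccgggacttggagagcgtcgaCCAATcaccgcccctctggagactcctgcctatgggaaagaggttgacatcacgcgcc

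**Figure D2:**
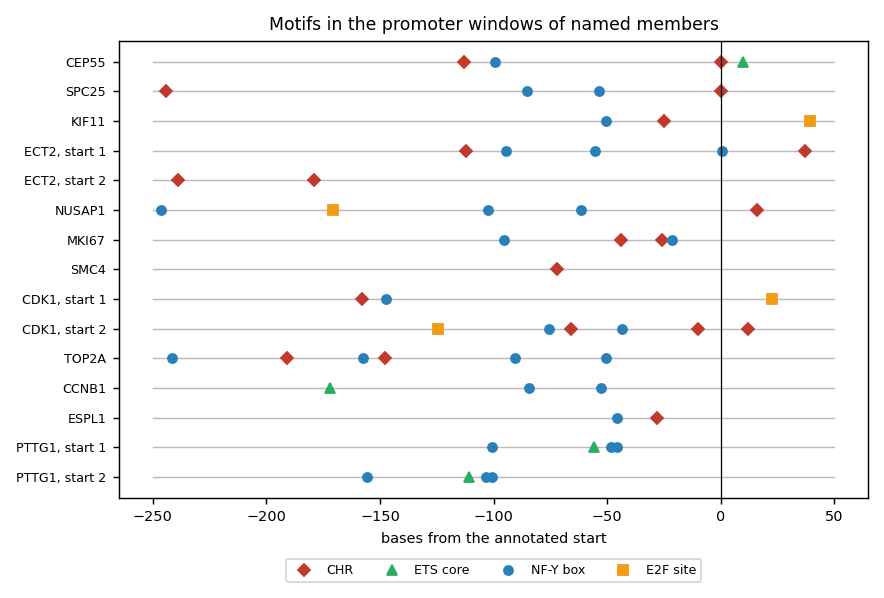
Position of each motif match (x axis, bases from the annotated start) in the promoter windows of the named members that hold any match (y axis, with CEP55, at -0.38, the most negative difference). Diamonds are CHR matches, circles NF-Y boxes, triangles ETS cores and squares E2F sites; the vertical line is the annotated start, and most NF-Y boxes lie before it.

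The 8 regulators of mitotic entry had log2 fold changes of -0.22 to -0.04. For 6 of them both LNCap ERG arrays lay below both LNCap Vector arrays, where 19.1% of all genes did, and 0 reached an unadjusted p under 0.05. CDK1, the kinase itself and the brightest of them, had log2 intensities of 10.83 and 10.90 in the LNCap ERG arrays, against 11.02 and 11.08 in the LNCap Vector arrays. Its groups did not overlap (10.87 ± 0.05 against 11.05 ± 0.04, SD, n = 2 each; difference -0.19 ± 0.08 SE, adjusted p = 0.54), and its other probe sets above background had -0.13 each. CCNB1, its cyclin B1 partner, read 10.26 and 10.37 in LNCap ERG, against 10.37 and 10.48 in LNCap Vector. The nearest arrays of the groups were almost level (difference -0.11 ± 0.09 SE, adjusted p = 0.73), and the difference ran between -0.16 and -0.05 when 1 array was dropped and was -0.03 with plain probe sets. CCNA2 (cyclin A2) and CDC25B, a phosphatase that activates CDK1, had -0.18 and -0.17 without overlap, while CCNB2 (cyclin B2) and the phosphatase CDC25C overlapped at -0.04 and -0.08.

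MYBL2, the B-MYB factor that works from the CHR, stood at 7.47 and 7.27 in the LNCap ERG arrays, against 7.64 and 7.53 in the LNCap Vector arrays. Its groups did not overlap, although the arrays within each were spread (difference -0.22 ± 0.10 SE, adjusted p = 0.57), and the difference ran between -0.32 and -0.12 when 1 array was dropped. FOXM1, the forkhead factor that follows it at the same promoters, had 8.24 and 8.32 in LNCap ERG, against 8.32 and 8.49 in LNCap Vector. The second LNCap ERG array and the first LNCap Vector array of FOXM1 were almost level (difference -0.13 ± 0.09 SE, adjusted p = 0.71), and the difference ran between -0.21 and -0.04 when 1 array was dropped.

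The mitotic kinases and passenger proteins had the median nearest 0 of the 7 roles, -0.02 over 5 genes. This median is the value of INCENP, which lay below background. Without overlap 2 were lower, where 19.1% of all genes were. AURKA, the kinase of centrosomes and spindle poles, had 8.46 and 8.55 in the LNCap ERG arrays, against 8.58 and 8.82 in the LNCap Vector arrays. Its second LNCap Vector array was well above the first (difference -0.19 ± 0.11 SE, adjusted p = 0.63), and the difference ran between -0.32 and -0.07 when 1 array was dropped. The plain AURKA probe set, at -0.02, lay below background, and another AURKA probe set above background had -0.16 without overlap. BIRC5 (survivin), a subunit of the chromosomal passenger complex, read 9.13 and 9.10 in LNCap ERG, against 9.19 and 9.27 in LNCap Vector, with no overlap (difference -0.11 ± 0.08 SE, adjusted p = 0.69). For BIRC5 the difference was -0.07 with plain probe sets and -0.18 with its probe sets averaged. AURKB, the kinase of that complex, overlapped at 0.06, and so did its scaffold INCENP at -0.02 and PLK1, the polo-like kinase, at 0.03. Another AURKB probe set was below background in every array.

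Among the 12 checkpoint, centromere and kinetochore genes 10 were lower without overlap, where 19.1% of all genes were. The median of the 12 was -0.16. SPC25, a subunit of the Ndc80 complex that holds microtubules, had log2 intensities of 6.95 and 6.86 in the LNCap ERG arrays, against 7.27 and 7.17 in the LNCap Vector arrays. It was 1.24-fold lower (6.90 ± 0.07 against 7.22 ± 0.07, SD, n = 2 each; difference -0.32 ± 0.09 SE, adjusted p = 0.39). NUF2 and NDC80, of the same complex, had -0.22 and -0.18, and all 3 stood below both LNCap Vector arrays.

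TTK (MPS1), the kinase that starts the spindle checkpoint, had 7.42 and 7.35 in LNCap ERG, against 7.61 and 7.64 in LNCap Vector. The arrays within each group differed by less than the gap between the groups (difference -0.24 ± 0.08 SE, adjusted p = 0.45). BUB1, a checkpoint kinase, had -0.23. BUB3, its partner and the brightest gene of this role, read 10.45 and 10.41 in LNCap ERG, against 10.58 and 10.52 in LNCap Vector, without overlap (difference -0.12 ± 0.08 SE, adjusted p = 0.67). The plain BUB3 probe set, at -0.06, lay below background, and the others above background had -0.29 to -0.08 without overlap. MAD2L1, the inhibitor of CDC20, CENPA, the histone of centromeres, and CENPF had -0.12 to -0.14, all without overlap. BUB1B (BUBR1) and CENPE, a kinetochore motor, overlapped at -0.02 and 0.02. SGO1, which guards centromeric cohesin, was at -0.18 but below background.

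All 11 spindle motors and microtubule-associated genes were lower without overlap, where 19.1% of all genes were. The 11 were lower by 0.09 to 0.31, with a median of -0.17. CKAP2, a microtubule-associated protein, stood at 8.37 and 8.26 in the LNCap ERG arrays, against 8.55 and 8.70 in the LNCap Vector arrays. It was 1.24-fold lower (8.31 ± 0.07 against 8.63 ± 0.11, SD, n = 2 each; difference -0.31 ± 0.09 SE, adjusted p = 0.43). Averaged with the other CKAP2 probe set, which lay below background, the difference was -0.17. KIF11, the motor that pushes spindle poles apart, had 7.15 and 7.54 in LNCap ERG, against 7.64 and 7.59 in LNCap Vector. The first LNCap ERG array of KIF11 was far below the others (difference -0.27 ± 0.14 SE, adjusted p = 0.60). The difference was -0.07 without it and -0.46 without the second.

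NUSAP1, which bundles spindle microtubules, was the brightest of this role at 10.56 and 10.62 in the LNCap ERG arrays, against 10.81 and 10.82 in the LNCap Vector arrays. Arrays within each group lay within 0.1 of each other and the groups were over 0.1 apart (difference -0.22 ± 0.08 SE, adjusted p = 0.46). ASPM, the spindle pole protein, KIF20A, KIF23 and PRC1, which build the central spindle, and KIF2C, a microtubule depolymerase, had -0.25 to -0.14. TPX2, the activator of AURKA, had -0.13, and DLGAP5 and HMMR had -0.10 and -0.09.

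The 4 genes of anaphase were all lower without overlap, by 0.08 to 0.12, where 19.1% of all genes were lower without overlap. UBE2C, the ubiquitin-conjugating enzyme of the anaphase-promoting complex, had 10.52 and 10.44 in the LNCap ERG arrays, against 10.61 and 10.60 in the LNCap Vector arrays (difference -0.12 ± 0.08 SE, adjusted p = 0.66). PTTG1 (securin), the brightest member of all, read 11.61 and 11.59 in LNCap ERG, against 11.69 and 11.68 in LNCap Vector. This was 1.06-fold lower, and arrays of a group differed by less than the groups did (difference -0.08 ± 0.07 SE, adjusted p = 0.76). ESPL1 (separase), which securin holds inactive, had 7.78 and 7.82 in LNCap ERG, against 7.88 and 7.94 in LNCap Vector (difference -0.11 ± 0.08 SE, adjusted p = 0.70). CDC20, the activator of the complex, had -0.08.

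Of the genes of chromosome structure 4 of 5 were lower without overlap, where 19.1% of all genes were. The median of the 5 was -0.18. MKI67, the Ki-67 protein that coats mitotic chromosomes and is the usual stain for dividing cells, had 6.90 and 6.84 in the LNCap ERG arrays, against 7.07 and 7.12 in the LNCap Vector arrays. At this probe set its groups did not overlap (6.87 ± 0.05 against 7.09 ± 0.04, SD, n = 2 each; difference -0.22 ± 0.08 SE, adjusted p = 0.47). Of its other probe sets, all above background, one had -0.20 without overlap and those at -0.18 and -0.09 overlapped, so the printed difference is the largest of them. TOP2A, the topoisomerase that untangles chromosomes, read 9.63 and 9.65 in LNCap ERG, against 9.81 and 9.84 in LNCap Vector (difference -0.18 ± 0.07 SE, adjusted p = 0.53). A second TOP2A probe set above background had -0.53, so the size for TOP2A depends on the probe set. SMC4, an ATPase of condensin, stood at 10.14 and 10.09 in LNCap ERG, against 10.26 and 10.38 in LNCap Vector (difference -0.21 ± 0.08 SE, adjusted p = 0.53). NCAPH, a condensin I subunit, had -0.06. NCAPG, another, had 0.08 with overlap at its brightest probe set and -0.43 without overlap at the other, and is uncertain.

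CEP55, a gene of cytokinesis, had the largest difference at the brightest probe set of a member. TOP2A and NCAPG had larger ones at another probe set above background. CEP55, which recruits the machinery of the final cut between daughter cells, had 8.08 and 8.10 in the LNCap ERG arrays, against 8.44 and 8.50 in the LNCap Vector arrays. It was 1.31-fold lower (8.09 ± 0.01 against 8.47 ± 0.04, SD, n = 2 each; difference -0.38 ± 0.08 SE, adjusted p = 0.32), rank 262 of 19583 from the lowest log2 fold change. ECT2, the exchange factor that activates RhoA at the cleavage furrow, had 8.76 and 8.76 in LNCap ERG, against 8.98 and 8.99 in LNCap Vector, with arrays of a group almost level (difference -0.23 ± 0.07 SE, adjusted p = 0.45). Its other probe sets, the plain one at -0.04 and another at -0.63, had means below background. ANLN (anillin), the scaffold of the furrow, had -0.18. RACGAP1, the partner of ECT2 and the brightest of this role, read 9.89 and 9.78 in LNCap ERG, against 9.87 and 9.92 in LNCap Vector and overlapped (difference -0.06 ± 0.08 SE, adjusted p = 0.87).

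**Figure D3:**
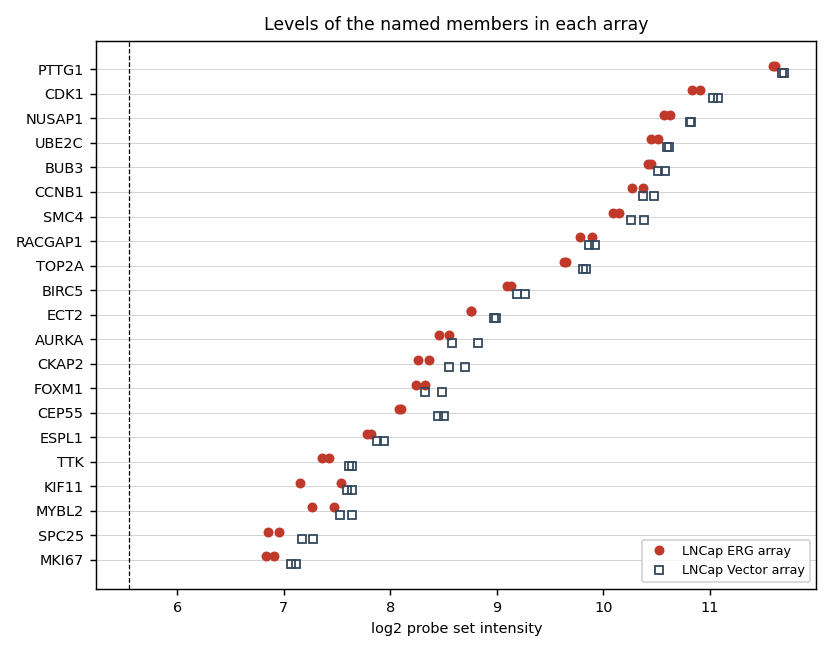
Log2 intensity (x axis) for each of the 21 named members (y axis, brightest at the top). Filled circles are the 2 LNCap ERG arrays, open squares the 2 LNCap Vector arrays and the dashed line is background, 5.55; all lie well to its right, and RACGAP1 is the member shown whose groups overlap.

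Over the 49 members the log2 fold change and the mean level had a Pearson r of -0.00 across genes, which are not independent replicates and share the same 4 arrays. Of the 49 members, 21 lay among the lowest 10% of all genes by log2 fold change. The members lie on 17 chromosomes, with at most 5 on any of them.

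**Figure D4:**
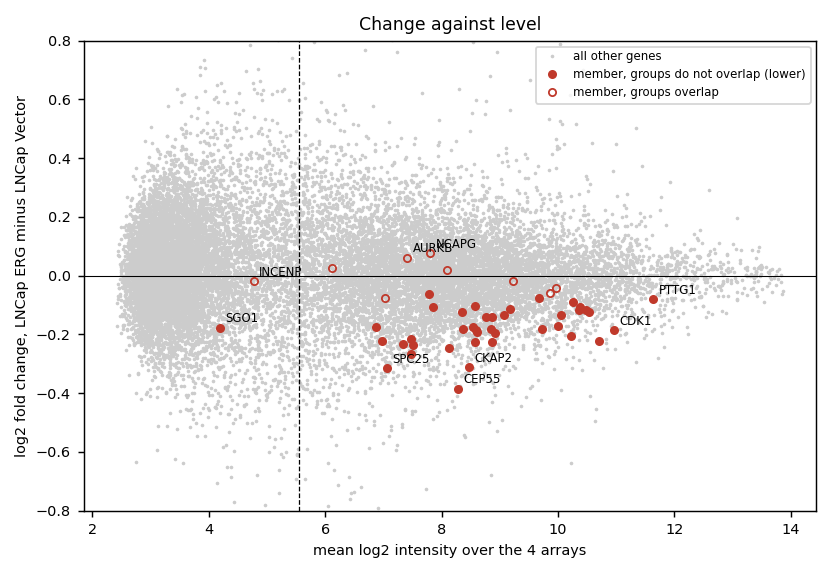
Log2 fold change (y axis, LNCap ERG minus LNCap Vector) against mean log2 intensity over the 4 arrays (x axis). Small grey points are the other genes, of which 37 lie beyond the axis at 0.8 in either direction, filled circles the 40 members whose groups do not overlap and open circles the 9 that overlap; the dashed line is background at 5.55. Members lie mostly between 0 and -0.4 at every level.

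Probe sets other than the brightest mostly read the same direction. Of the 49 genes 25 have more than 1 probe set. Above background, 71 probe sets of 47 members gave 67 log2 fold changes below 0, with 58 lower without overlap, where 26% of all named probe sets above background were (20.1% of all named probe sets). The 24 of these that had not been used to represent their gene were all below 0, from -0.53 to -0.03, although they read the same RNA and are no further replicates. Of the 18 genes with several probe sets above background, 17 had all of them below 0 and NCAPG was mixed. Within such a gene the log2 fold changes spanned a median of 0.11 and at most 0.51.

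Other genes of mitosis, a list of 82 of which 81 were measured, stood close to the members. Their median log2 fold change was -0.14, 72 were below 0, 57 (70.4%) were lower without overlap and 2 higher, where 19.1% of all genes were lower and 21.7% higher. By limma 0 were higher and 0 lower at an adjusted p under 0.05, with 17 lower and 0 higher unadjusted (4.11% and 5.61% of all genes). The methods' t-test gave 13 lower and 0 higher unadjusted (3.76% and 4.38% of all genes), and 0 after adjustment. CENPN, a reader of centromeric chromatin, had the smallest adjusted p, with 10.40 and 10.45 in the LNCap ERG arrays, against 10.89 and 10.87 in the LNCap Vector arrays (difference -0.45 ± 0.08 SE, adjusted p = 0.27). Arrays of a group lay close together for CENPN. Over the 14 alternatives its adjusted p ran between 0.0073, with a trended and robust variance, and 0.74, and it passed under the first of these alone. SKA3, of the Ska complex at kinetochores, had -0.47 and DEPDC1 had -0.46, both without overlap. At the upper end ZWINT, a kinetochore protein, had -0.03, GTSE1, a regulator of microtubules, 0.05 and MAD1L1, the partner of MAD2, 0.19, each without overlap at the brightest probe set. GTSE1 has no settled direction, with -0.10 when its probe sets were averaged and -0.42 with plain ones.

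Genes of DNA replication and of the G1/S transition act a phase earlier. Of 56 listed, 55 were measured, with a median of -0.15, 51 below 0, 40 (72.7%) lower without overlap and 1 higher, where 19.1% of all genes were lower and 21.7% higher. By limma 0 passed, with 17 lower and 0 higher unadjusted (4.11% and 5.61% of all genes) and 13 lower by the methods' t-test (3.76% of all genes). Over all genes, trended and robust moderation of the limma fit called more genes, as counted further below. With trended and robust moderation 2 passed downward, GMNN (geminin, an inhibitor of replication licensing; -0.39, adjusted p = 0.025) and MCM4 (a helicase subunit; -0.42, adjusted p = 0.0497), named after their values were seen. CCNE2, the cyclin E2 of S phase entry, had 7.04 and 7.08 in LNCap ERG, against 7.49 and 7.67 in LNCap Vector (difference -0.52 ± 0.09 SE, adjusted p = 0.29). CDC6, which loads the replicative helicase, had -0.46 and E2F1, the factor that drives these genes, -0.18, both without overlap. The difference between the replication genes and the mitotic members was not tested.

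Regulators that act at these promoters were measured too, 18 of 18, with a median of -0.13, 14 below 0 and 9 (50%) lower without overlap, where 19.1% of all genes were. By limma 0 passed, with 2 lower and 0 higher unadjusted (4.11% and 5.61% of all genes), the same counts as by the methods' t-test. E2F7, an atypical E2F that represses transcription and is itself a cell cycle gene, had 6.79 and 6.97 in the LNCap ERG arrays, against 7.38 and 7.40 in the LNCap Vector arrays (difference -0.51 ± 0.09 SE, adjusted p = 0.29). RBL1 (p107), of the DREAM complex, had 5.79 and 5.83 in LNCap ERG, against 6.34 and 6.18 in LNCap Vector (difference -0.45 ± 0.09 SE, adjusted p = 0.32), and RB1, the retinoblastoma protein, had -0.25 without overlap. The NF-Y subunits NFYA, NFYB and NFYC had -0.02, 0.06 and 0.03. NFYA was the subunit whose groups did not overlap.

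**Figure D5:**
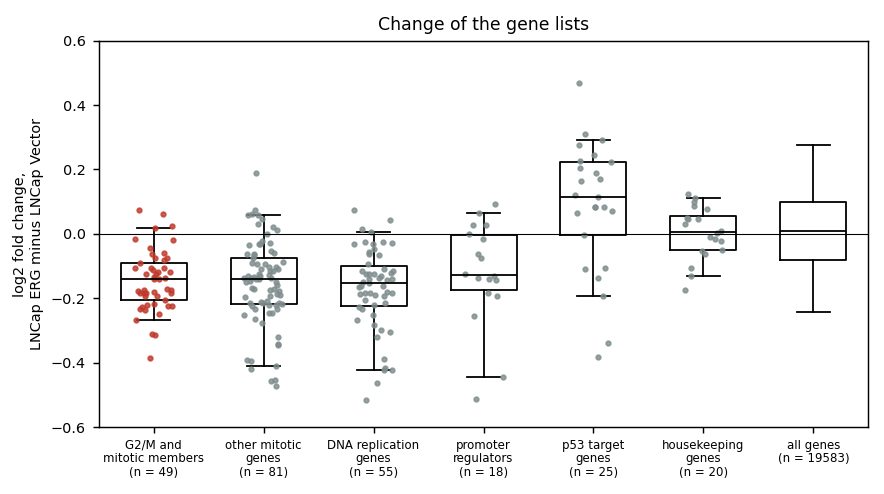
Log2 fold change (y axis, LNCap ERG minus LNCap Vector) of the members, the comparison lists and all genes (x axis, with the number of genes). Points are genes (not drawn for all genes), boxes the middle of the distribution with the median, and whiskers the 5th and 95th percentiles; the medians are -0.14 for the members, -0.14 for other mitotic genes, -0.15 for replication genes, -0.13 for promoter regulators, 0.12 for p53 targets, and 0.01 for both housekeeping genes and all genes.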

How the data were processed

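RNA of 4 LNCap samples was measured on Affymetrix arrays, 1 array per sample and 2 per group. The deposited intensity values were made by the authors with dChip and RMAexpress and annotated with Multiexperiment Viewer. Their versions are not given in the sources used. Medians of 14.0 to 14.4 and maxima of 14962 to 15344 are those of a linear scale, so the values were taken to log2 here. Of 51965 probe sets, 39466 name 1 gene, 838 several and 11661 none in the platform annotation, and 2 with a missing value were left out. The Entrez identifiers of 39415 were found in the RefSeq table of GRCh38.p14. No symbol needed updating. Each gene was represented by its brightest probe set.

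The contrast was fitted in R 4.3.3 with limma 3.58.1, by lmFit and then eBayes (2 residual and 3.23 prior degrees of freedom) with Benjamini-Hochberg adjustment over 19583 genes, at 0.05. The fit was tested on simulated data whose changes were larger than those of any member. That test says nothing about differences as small as theirs. Python 3.11.15 was used for summaries. No set test was run.

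The members and lists were chosen with earlier results of these data known. Named members were, in each of 7 roles, the 2 with the largest change without overlap and the brightest, and MKI67, TOP2A, CDK1, CCNB1, FOXM1 and MYBL2. Of the other mitotic genes the 3 highest and 3 lowest without overlap were named, of each other list the 2 largest, and CDKN1A, RB1 and E2F1. Other genes are named as examples after their values were seen. Promoters printed followed this rule with a CHR and a CCAAT box. The alternatives were the moderation, a filter on dim genes, the choice of probe set, the normalization, an offset, the replicate block, the methods' t-test and each array left out. Arrays have no read depth, and their number limits the precision.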

Additional observations from a re-analysis of the deposited data

How the results depend on the processing

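Under the settings tried, 0 of the members passed upward or downward in any of the 14 alternatives (37 members could be tested with plain probe sets and 47 with the filter on dim genes), with smallest adjusted p-values from 0.073 with trended and robust moderation to 0.74 without the first LNCap ERG array. Their median log2 fold change of -0.14 was -0.16 when probe sets were averaged per gene, and lay between -0.167 and -0.130 when 1 array was dropped. Of the 9 members whose groups overlap, 7 changed sign under at least 1 alternative. Deviations of same-numbered arrays correlated at 0.08 over all genes and 0.20 over the members. With 2 pairs and no label that ties them, the arrays were treated as sharing only a number. With the replicate block, which cannot move a difference in this balanced design, the smallest adjusted p of a member by limma was 0.50. Without the block 9 members were lower at an unadjusted p under 0.05, beside 4.11% of all genes. At an adjusted p under 0.05 the block gave 0 genes higher and 0 lower over all.

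Over all genes the 1 higher and 1 lower called became 48 and 41 with trended and robust moderation, 31 and 23 without genes below the median intensity, 6 and 8 with the mean of probe sets, 1 and 2 with plain probe sets, 2 and 1 with quantile normalization again, 3 and 3 centred on housekeeping genes, and 17 and 10 with 16 units added before log2. They were 0 and 0 with every probe set tested, with the methods' t-test and with any array left out. The other mitotic genes had 1 lower call (CENPN) and the replication genes 2 (GMNN, MCM4) with trended and robust moderation, and the median of the other mitotic genes was -0.18 with plain probe sets. The median of the replication genes lay between -0.185 and -0.136, and that of the other mitotic genes between -0.162 and -0.127, when 1 array was dropped. GTSE1 turned to -0.10 with the mean of its probe sets and to -0.42 with plain ones, and the cause was not tested. When 1 array is dropped, 1 residual degree of freedom is left and its lone partner is assumed to vary as the other group does. With 2 arrays a group, differences near 0.1 for a single gene cannot be told from the spread. The larger differences of single members did not pass either.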

Other observations

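Target genes of p53, a factor that is intact in LNCaP cells and holds the cycle through CDKN1A, were measured beside the mitotic members. Of 27 listed, 25 were measured, with a median log2 fold change of 0.12. Of these 15 had both LNCap ERG arrays above both LNCap Vector arrays, where 21.7% of all genes did, and 3 had them below, where 19.1% did. By limma 0 passed an adjusted p of 0.05, with 7 higher and 2 lower unadjusted (5.61% and 4.11% of all genes), and 8 and 2 by the methods' t-test (4.38% and 3.76%). With trended and robust moderation 1 passed upward, GDF15, under a setting that called more genes over all, as counted above.

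CDKN1A (p21), the inhibitor of cyclin-dependent kinases, had log2 intensities of 9.21 and 9.18 in the LNCap ERG arrays, against 8.94 and 8.82 in the LNCap Vector arrays (difference 0.31 ± 0.08 SE, adjusted p = 0.38). TP53I3, a quinone oxidoreductase, had 6.85 and 7.07 in LNCap ERG, against 6.41 and 6.57 in LNCap Vector (difference 0.47 ± 0.11 SE, adjusted p = 0.37). MDM2, the ubiquitin ligase of p53, GADD45A, a stress protein, and GDF15, a secreted factor, had log2 fold changes of 0.22, 0.16 and 0.29, each higher without overlap. SESN2, a stress sensor, was lower without overlap (difference -0.38 ± 0.08 SE, adjusted p = 0.32), and PLK2, a kinase related to PLK1, had -0.34. Of these genes TP53I3 and SESN2 were named by size and CDKN1A by the rule, and the others after their values were seen.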
